A study of Arabidopsis thaliana with 24 samples.

Results

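The 10 genes of Arabidopsis thaliana described here encode enzymes for removing hydrogen peroxide and superoxide, out of 33602 genes in the deposited expression table. They were chosen by identifier and not by a rule on their values, though with earlier results of these data known. They include the 3 catalases CAT1, CAT2 and CAT3 and the ascorbate peroxidases APX1, APX2, SAPX and TAPX. The others are the plastid iron superoxide dismutases FSD2 and FSD3 and the mitochondrial manganese superoxide dismutase MSD1. All 10 are in the table, and 9 of them reached 1 RPKM (reads scaled to gene length and library size) in at least 1 group, APX2 being the exception. Superoxide dismutases turn superoxide into hydrogen peroxide, which catalases break down in peroxisomes and ascorbate peroxidases reduce at the cost of ascorbate in the cytosol, plastids and mitochondria. Catalases and ascorbate peroxidases carry heme, FSD2 and FSD3 carry iron without heme, and MSD1 carries manganese, so the set spans enzymes that differ in their need for iron.

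RNA came from roots of 7 day old seedlings, in 24 libraries that form 8 groups of 3. Growth was on iron for 4 days. Seedlings then spent 3 days on medium without FeEDTA and with 300 µM ferrozine, an iron chelator, except those of iron-sufficient wild type, which had 0.1 mM FeEDTA throughout. The groups without iron were 5 lines (PPL, SHR23, PEP45, WER13, WER65), the pye-1 mutant and wild type; the labels call the mutant's genotype PYE, where the series design writes pye-1. PYE encodes POPEYE, a basic helix-loop-helix regulator active in iron-starved roots. The labels give the GFP localization of the lines as V-EN-C-EP for PPL, V-EN for SHR23, C-EN-V for PEP45, EP-C for WER13 and EP for WER65. A deposited sheet names SHR, SCR, PEP and WER as genes whose promoters drove PYE, and heads a column pye-1/PYE, without tying either to a sample. The mutant background of each line and the number of clones were not stated in the labels, nor was it stated whether the 3 libraries of a group came from separate cultures.

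Each value is the authors' mean of a group, so no spread between libraries can be given, and neighbours in an order of levels cannot be called different from their spread. "Rose" and "fell" are used only where the authors' deposited table for that comparison lists the gene, at a q-value under 0.05. The smallest fold listed in any of these tables was 1.485, so a gene with a smaller difference may be missing whatever its q-value. "Not listed" therefore does not mean that the q-value was 0.05 or more. Library depth, worked out from the spacing of low values, ran between 14834500 and 24011400 effective reads. The PYE transcript (AT3G47640) stood at 25.3 RPKM in PPL, 45.8 in SHR23, 28.9 in PEP45, 30.3 in WER13, 27.5 in WER65, 20.6 in pye-1, 45.05 in iron-deficient and 11 in iron-sufficient wild type, and reads of the gene thus remained in pye-1. The 10 root markers examined were above 0 in every group, led by the root beta-glucosidase PYK10 at 3022 to 9107 RPKM. Of these 10, the authors' deposited tables list 4 as lower in pye-1, 4 in SHR23, 4 in PEP45, 5 in WER13, 3 in WER65, none in PPL and 5 in wild type without iron, with 1 higher in SHR23. Outside PPL, those tables list 9.64% to 14.1% of genes that reached 1 RPKM in a group as lower, and 7.56% as higher in SHR23. EXPA7 (AT1G12560), an expansin of root hairs, stood at 20.5 RPKM in PPL, 3.17 in SHR23, 3.93 in PEP45, 3.11 in WER13, 14.15 in WER65, 2.88 in pye-1, 25.9 in iron-deficient and 68.6 in iron-sufficient wild type. COBL9 (AT5G49270), also of root hairs, fell 4.69-fold in pye-1, and CASP1 (AT2G36100), of the endodermal Casparian strip, fell 3.18-fold in pye-1 and 2.90-fold in wild type without iron. Other root markers differed less in pye-1. SCR (AT3G54220) stood at 12.0 RPKM there against 13.3 in iron-deficient wild type, SHR (AT4G37650) at 14.2 against 14.1 and WER (AT5G14750) at 5.90 against 4.76. GL2 (AT1G79840) stood at 1.925 RPKM in pye-1 against 3.427, and MYB36 (AT5G57620) at 16.2 against 22.2. PYK10 stood at 4059 against 5025 and XCP2 (AT1G20850) at 64.4 against 67.2. The part of these cell types in the results on the 10 enzyme genes was not tested. In such bulk samples, fewer cells of a type and less RNA per cell cannot be told apart.

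CAT1, CAT2, APX1 and SAPX were lower in wild type without iron and higher in pye-1 and in 4 of the 5 lines, whereas FSD3 and MSD1 were listed in no comparison. FSD3 was 1.476-fold lower in wild type without iron, just under the smallest fold listed in any authors' table. Without iron, 4 of the 10 genes fell in wild type and none rose in the authors' deposited table, where 22% of the 19767 genes that reached 1 RPKM in a group (kept genes) were listed, 11.7% as lower and 10.3% as higher. In pye-1, CAT1, CAT2, CAT3, APX1 and SAPX rose against iron-deficient wild type, 5 of 10, and none fell, beside 19.1% of kept genes listed, 8.89% as higher and 10.2% as lower. In SHR23 the same 5 genes rose and TAPX fell, beside 18.1% of kept genes listed, 7.56% as higher and 10.6% as lower. PEP45 had those 5 genes higher and none lower, also beside 18.1% listed, 8.43% as higher and 9.64% as lower. In WER13, CAT1, CAT2, APX1 and SAPX rose and TAPX and FSD2 fell, beside 23.1% listed, 8.99% as higher and 14.1% as lower. WER65 had the same 4 genes higher and TAPX lower, beside 19.3% listed, 7.87% as higher and 11.5% as lower. None of the 10 was listed in PPL, whose table holds 3 genes, 0.0152% of the kept genes, with 0.00506% higher and 0.0101% lower. That table is headed PYE, was assigned to PPL from the values of those 3 genes, and gives no unadjusted p-values. The 6 comparisons of mutant and lines share the same iron-deficient wild-type libraries, which are also the iron-deficient side of the comparison with iron-sufficient wild type.

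**Figure D1:**
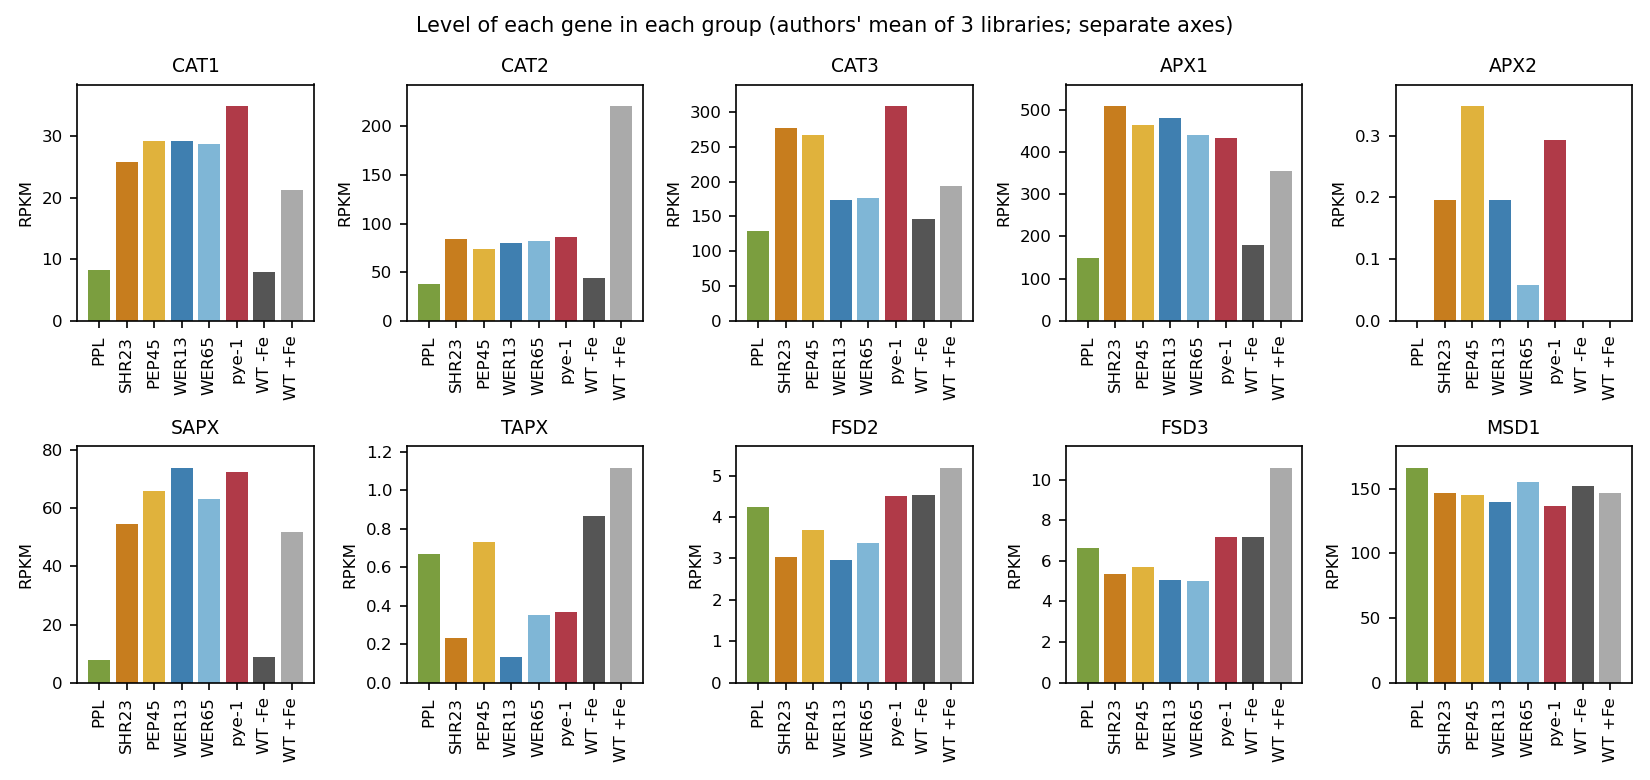
Bars give the authors' mean RPKM of each of the 10 genes in the 8 groups, on an axis of its own for each gene, without error bars since the table holds 1 value per group. CAT1, APX1 and SAPX are low in PPL and iron-deficient wild type and high elsewhere, CAT2 is highest in iron-sufficient wild type at 221 RPKM, and MSD1 stays between 136 and 166 RPKM.

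SAPX had the largest difference of the 10 genes in wild type without iron, in pye-1 and in SHR23, PEP45, WER13 and WER65 on the scale log2(RPKM + 0.5). SAPX (AT4G08390, chromosome 4, 5314871 to 5317963 in TAIR10.1) encodes the ascorbate peroxidase of the plastid stroma, which is also sent to mitochondria. Its level was 7.74 RPKM in PPL, 54.6 in SHR23, 65.9 in PEP45, 74.1 in WER13, 63.1 in WER65, 72.5 in pye-1, 8.72 in iron-deficient and 51.8 in iron-sufficient wild type. PPL and iron-deficient wild type lay below 9 RPKM and the other 6 groups above 51, with nothing between. In wild type it fell 5.94-fold without iron (q = 1.1e-05, the authors' deposited table), and it rose 8.32-fold in pye-1 (q = 1.16e-06, the authors' deposited table). The rise against iron-deficient wild type was 6.27-fold in SHR23, 7.56-fold in PEP45, 8.50-fold in WER13 and 7.24-fold in WER65, with q-values of 1.03e-06, 6.12e-08, 8.87e-08 and 4.11e-07 in the authors' deposited tables. The iron-deficient mutant thus held 140% of the SAPX level of iron-sufficient wild type, and SHR23, the lowest of the 4 lines that rose, held 105.5%.

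The 300 bases before the annotated SAPX start are shown because of the size of these differences. The window is chr4:5314571-5314870 on the plus strand of TAIR10.1, read from the RefSeq genome, in lower case throughout since it holds none of the motifs searched.
SAPX: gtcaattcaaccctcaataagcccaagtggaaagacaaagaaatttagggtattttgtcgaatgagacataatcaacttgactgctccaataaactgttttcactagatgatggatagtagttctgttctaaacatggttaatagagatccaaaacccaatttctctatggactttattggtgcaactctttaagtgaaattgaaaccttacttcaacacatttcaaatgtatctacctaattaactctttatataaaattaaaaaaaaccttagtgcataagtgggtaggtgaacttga
The motifs were the G-box CACGTG, bound by many basic helix-loop-helix and bZIP factors, the heat shock element core GAANNTTC or TTCNNGAA, and the evening element AAAATATCT of clock-controlled genes, each on both strands. Among 27443 protein-coding genes, 7.09% held the G-box, 19.3% a heat shock core and 2.79% the evening element in a window of that length. The windows before CAT2, TAPX, FSD2, FSD3 and MSD1, not shown here, also held none of these motifs.

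APX1 moved in the same directions as SAPX by smaller factors. APX1 (AT1G07890, chromosome 1, 2437281 to 2439665) encodes the main cytosolic ascorbate peroxidase and had the highest RPKM, a level per length, of the 10 genes in every group but PPL, where MSD1 was higher. It stood at 150 RPKM in PPL, 509 in SHR23, 463 in PEP45, 479.6 in WER13, 439.8 in WER65, 434 in pye-1, 181 in iron-deficient and 354 in iron-sufficient wild type. Again PPL and iron-deficient wild type were the lowest, and SHR23 rather than the mutant was the highest. It fell 1.96-fold in wild type without iron (q = 0.000268, the authors' deposited table), which leaves it short of a 2-fold change. The rise was 2.40-fold in pye-1 (q = 3.12e-05, the authors' deposited table) and 2.43-fold to 2.81-fold in WER65, WER13, PEP45 and SHR23. As a percent of iron-sufficient wild type, APX1 reached 144% in SHR23 and 122.5% in pye-1. Its window before the start, chr1:2436981-2437280 on the plus strand, held 1 heat shock core, GAAAATTC, 109 to 116 bases before the start, in capitals here.
APX1: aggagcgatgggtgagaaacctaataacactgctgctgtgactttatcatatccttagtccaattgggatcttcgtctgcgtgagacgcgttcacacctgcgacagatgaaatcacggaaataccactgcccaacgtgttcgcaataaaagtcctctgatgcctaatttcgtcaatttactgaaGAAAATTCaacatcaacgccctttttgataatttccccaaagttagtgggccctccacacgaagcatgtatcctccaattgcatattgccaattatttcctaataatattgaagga

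CAT1 shared this pattern at a lower level. CAT1 (AT1G20630, chromosome 1, 7146636 to 7150180) is the catalase gene known for expression in pollen and seeds and for induction by stress. Levels were 8.27 RPKM in PPL, 25.7 in SHR23, 29.1 in PEP45, 29.1 in WER13, 28.8 in WER65, 34.8 in pye-1, 7.99 in iron-deficient and 21.2 in iron-sufficient wild type. It fell 2.66-fold without iron in wild type (q = 0.00019, the authors' deposited table) and rose 4.36-fold in pye-1 (q = 9.44e-06, the authors' deposited table). The 4 lines that rose did so by 3.22-fold to 3.65-fold and stood at 121% to 137% of iron-sufficient wild type, below the 164% of pye-1.

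CAT2 fell steeply without iron and was higher again, though far below the iron-sufficient level, in pye-1, SHR23, PEP45, WER13 and WER65 but not in PPL. CAT2 (AT4G35090, chromosome 4, 16700312 to 16703504) encodes the main catalase of leaves, where it removes the hydrogen peroxide of photorespiration. Its level was 37.9 RPKM in PPL, 84.3 in SHR23, 74.3 in PEP45, 79.85 in WER13, 82.7 in WER65, 86.8 in pye-1, 44.7 in iron-deficient and 221 in iron-sufficient wild type. Iron-sufficient wild type stood apart from all 7 iron-deficient groups, the nearest of which, pye-1, held 39.3% of its level. CAT2 fell 4.95-fold without iron (q = 4.22e-06, the authors' deposited table). It rose 1.94-fold in pye-1 (q = 3.44e-05, the authors' deposited table) and 1.66-fold to 1.89-fold in the 4 lines. So PEP45 to pye-1 spanned 33.6% to 39.3% of the iron-sufficient level for CAT2, while CAT1, APX1 and SAPX were all above 100% in the same 5 groups; the difference between genes was not tested.

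**Figure D2:**
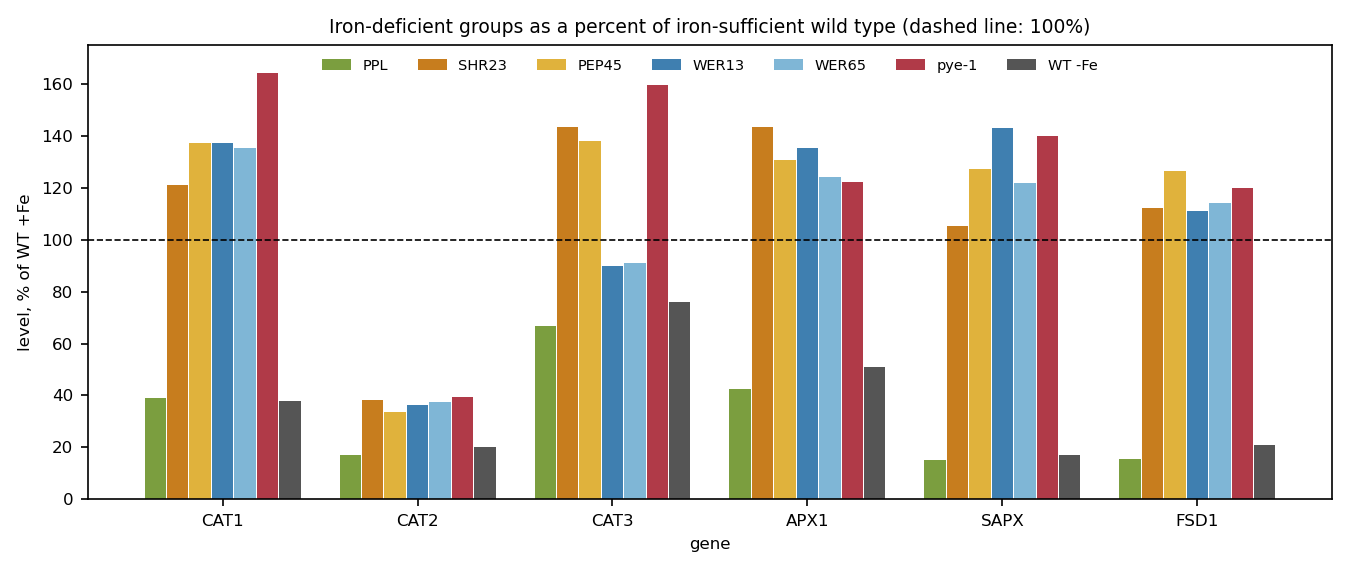
Bars give the level of 6 genes in the 7 iron-deficient groups as a percent of the authors' mean in iron-sufficient wild type, marked by the dashed line at 100%. CAT1, APX1, SAPX and FSD1 pass the line in SHR23, PEP45, WER13, WER65 and pye-1, CAT2 stays at or below 39.3% in every group, and CAT3 passes it in SHR23, PEP45 and pye-1 but not in WER13 or WER65.

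CAT3 divided the lines. CAT3 (AT1G20620, chromosome 1, 7142972 to 7146540) encodes the catalase linked to vascular tissue and senescence, and its transcript is a known clock output. It stood at 129 RPKM in PPL, 277 in SHR23, 267 in PEP45, 174 in WER13, 176 in WER65, 308 in pye-1, 147 in iron-deficient and 193 in iron-sufficient wild type. SHR23, PEP45 and pye-1 lay at 267 RPKM or more, and the other 5 groups at 193 or less. CAT3 was not listed between the wild-type groups, where it differed 1.31-fold. It rose 2.097-fold in pye-1, 1.88-fold in SHR23 and 1.82-fold in PEP45, with q-values of 0.000887, 0.00302 and 0.00014 in the authors' deposited tables. In WER13 and WER65 it was 1.181-fold and 1.198-fold above iron-deficient wild type and not listed. Set against pye-1, it was 1.78-fold lower in WER13 and 1.75-fold lower in WER65 by value, and whether these lines differ from SHR23 and PEP45 was not tested.

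CAT3 and CAT1 are neighbours on the same strand, with 95 bases between the annotated end of CAT3 and the start of CAT1, yet only CAT1 was listed in WER13 and WER65. Those 95 bases, chr1:7146541-7146635 on the plus strand of TAIR10.1, are shown with the 300 bases before CAT3, chr1:7142672-7142971, because these adjacent genes parted in their levels. Capitals mark an evening element 71 to 79 bases before the CAT3 start, and the 95 bases hold no match.
CAT1: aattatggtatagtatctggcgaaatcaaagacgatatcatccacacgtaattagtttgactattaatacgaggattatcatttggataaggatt
CAT3: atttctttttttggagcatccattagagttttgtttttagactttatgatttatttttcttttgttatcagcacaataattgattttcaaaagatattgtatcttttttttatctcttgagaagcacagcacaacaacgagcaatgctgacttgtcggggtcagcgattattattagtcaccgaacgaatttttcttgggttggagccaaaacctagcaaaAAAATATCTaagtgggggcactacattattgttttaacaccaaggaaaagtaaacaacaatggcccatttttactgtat
Farther from its start, the window before CAT1 held 2 heat shock cores that lie inside the CAT3 gene. Clock transcripts also differed between groups, the morning gene RVE8 (AT3G09600) standing at 2.001 RPKM in PPL, 9.68 in SHR23, 3.50 in PEP45, 9.87 in WER13, 8.99 in WER65, 3.03 in pye-1, 2.15 in iron-deficient and 4.25 in iron-sufficient wild type. RVE8 was highest in WER13, SHR23 and WER65, and CAT3 in pye-1, SHR23 and PEP45. Of 12 clock genes, 3 rose and 3 fell in SHR23, WER13 and WER65 in the authors' deposited tables, 1 rose and 1 fell in PEP45, 1 fell in pye-1 and 7 fell in wild type without iron. Of all kept genes, 7.56% to 8.99% were listed as higher and 10.6% to 14.1% as lower in SHR23, WER13 and WER65. In PEP45 8.43% were higher and 9.64% lower, and 10.2% were lower in pye-1 and 11.7% in wild type without iron. The part of clock genes in the levels of CAT2 and CAT3 was not tested. Over coding sequence CAT1 was 80.2% identical to CAT2 and 77% to CAT3, and the longest run of identical bases in their exons was 32 between CAT1 and CAT2, so reads lying inside such a run cannot be told apart.

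APX2 was near the limit of detection. APX2 (AT3G09640, chromosome 3, 2956156 to 2958330) encodes a cytosolic ascorbate peroxidase known for induction by heat and strong light. It was listed at 0 in PPL and in both wild-type groups, at 0.1955 RPKM in SHR23, 0.348 in PEP45, 0.1964 in WER13, 0.058 in WER65 and 0.2925 in pye-1. With the exon length of TAIR10.1 these levels correspond to about 11 reads over the 3 libraries of SHR23, 21 of PEP45, 10 of WER13, 3 of WER65 and 21 of pye-1. In iron-deficient wild type 3 reads would make about 0.05085 RPKM, so a level up to that cannot be told from 0 there. No authors' table lists APX2. Its coding sequence was 72.7% identical to that of APX1, with a longest shared run of 12 bases. The window before its start, chr3:2955856-2956155 on the plus strand, is shown because it holds both kinds of motif. Capitals mark a G-box that begins 204 bases and heat shock cores 141 to 148 and 54 to 61 bases before the start.
APX2: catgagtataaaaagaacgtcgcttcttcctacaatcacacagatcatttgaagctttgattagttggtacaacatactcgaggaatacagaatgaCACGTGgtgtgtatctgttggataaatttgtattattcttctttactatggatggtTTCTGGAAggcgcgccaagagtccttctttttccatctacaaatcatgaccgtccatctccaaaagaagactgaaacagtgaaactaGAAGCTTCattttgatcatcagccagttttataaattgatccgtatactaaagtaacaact
Heat shock genes, of which APX2 is known to share regulators, rose in 7 of 11 cases in pye-1, 8 of 11 in PEP45, 5 of 11 in WER65, 3 of 11 in WER13 and 1 of 11 in SHR23 in the authors' deposited tables, with 1, 2 and 3 falls in WER65, WER13 and SHR23. Of all kept genes, 8.89% were listed as higher in pye-1, 8.43% in PEP45, 7.87% in WER65, 8.99% in WER13 and 7.56% in SHR23. The shares listed as lower were 11.5% in WER65, 14.1% in WER13 and 10.6% in SHR23. In wild type without iron 3 of the 11 heat shock genes rose, beside 10.3% of all kept genes. HSP17.6A (AT5G12030) was among them, at 12.85 RPKM without against 0.104 with iron, while APX2 was listed at 0 in both. HSP17.6A stood at 12.9 RPKM in WER13 and 32.0 in pye-1, where APX2 was above 0. The small heat shock protein gene HSP17.6II (AT5G12020) stood at 0.919 RPKM in PPL, 4.54 in SHR23, 10.3 in PEP45, 4.19 in WER13, 5.03 in WER65, 13.5 in pye-1, 0.92 in iron-deficient wild type and 0 in iron-sufficient wild type. PEP45 and pye-1 had the highest levels of both HSP17.6II and APX2. Some of the other heat shock genes were also highest in these groups, HSFA2 (AT2G26150) and HSFA3 (AT5G03720) among them, and others were not. HSFA7A (AT3G51910) was highest in iron-sufficient wild type, where APX2 was listed at 0. HSP17.6A was higher in WER65 than in PEP45, the reverse of APX2. The part of heat shock regulation in the APX2 levels was not tested.

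**Figure D3:**
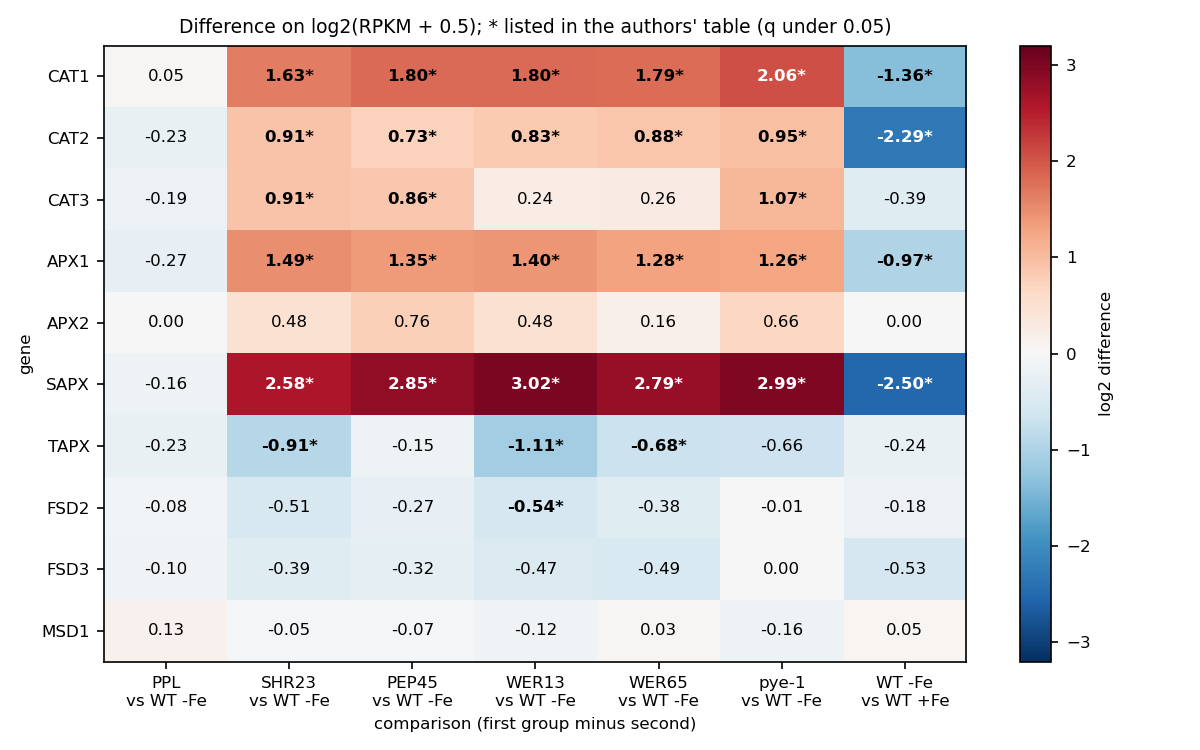
Colours and numbers give the difference of group means on log2(RPKM + 0.5) for the 10 genes in 7 comparisons, with an asterisk where the authors' table lists the gene. SAPX spans -2.50 in wild type without iron to 3.02 in WER13, the column for PPL runs from -0.27 to 0.13, and the row for MSD1 from -0.16 to 0.13.

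TAPX, the thylakoid-bound ascorbate peroxidase, was lower where SAPX was higher in SHR23, WER13 and WER65. TAPX (AT1G77490, chromosome 1, 29117500 to 29121093) stood at 0.668 RPKM in PPL, 0.23 in SHR23, 0.731 in PEP45, 0.135 in WER13, 0.353 in WER65, 0.368 in pye-1, 0.868 in iron-deficient and 1.119 in iron-sufficient wild type. Only iron-sufficient wild type reached 1 RPKM, so TAPX passed the filter on low values through that group alone. It fell 3.78-fold in SHR23, 6.45-fold in WER13 and 2.46-fold in WER65, with q-values of 0.0046, 0.000655 and 0.0168 in the authors' deposited tables. In pye-1 it was 2.36-fold lower and not listed, and in PEP45 1.19-fold lower and not listed. The counts behind these levels were small, about 16 reads over 3 libraries in WER13 against about 121 in iron-deficient wild type. SAPX and TAPX were 77.9% identical over their coding sequence, with a longest shared run of 21 bases.

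The iron superoxide dismutases FSD2 and FSD3, known as partners in plastid nucleoids, were listed once between them, FSD2 in WER13. FSD2 (AT5G51100, chromosome 5, 20773235 to 20775739) stood at 4.25 RPKM in PPL, 3.03 in SHR23, 3.68 in PEP45, 2.97 in WER13, 3.38 in WER65, 4.51 in pye-1, 4.53 in iron-deficient and 5.196 in iron-sufficient wild type. It fell 1.53-fold in WER13 (q = 0.014, the authors' deposited table) and was not listed elsewhere, though SHR23 lay 1.498-fold below iron-deficient wild type, near the smallest fold listed in any authors' table, 1.485. FSD3 (AT5G23310, chromosome 5, 7850444 to 7852534) stood at 6.66 RPKM in PPL, 5.36 in SHR23, 5.68 in PEP45, 5.05 in WER13, 4.99 in WER65, 7.18 in pye-1, 7.19 in iron-deficient and 10.6 in iron-sufficient wild type, and no authors' table lists it. In wild type without iron FSD3 was 1.476-fold lower, just under 1.485, so it may be missing there whatever its q-value. Its lowest group, WER65, held 47% of the level of iron-sufficient wild type. In pye-1, FSD2 and FSD3 were 1.005-fold and 1.002-fold lower than in iron-deficient wild type. By contrast FSD1 (AT4G25100), the other iron superoxide dismutase, rose 5.74-fold in pye-1 to 135 RPKM, against 23.56 RPKM in iron-deficient wild type (q = 2.95e-05, the authors' deposited table). FSD1 fell 4.78-fold without iron and rose in SHR23, PEP45, WER13 and WER65, and over the 8 groups its pattern had a Pearson r of 0.99 with SAPX and -0.39 with FSD2.

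Transcripts of 19 photosynthesis genes, taken as markers of shoot material left on the cut roots, moved with TAPX. Their sum was 143 RPKM in PPL, 68.5 in SHR23, 484 in PEP45, 39.6 in WER13, 44.96 in WER65, 128.9 in pye-1, 398 in iron-deficient and 425 in iron-sufficient wild type. The 3 groups where TAPX was listed as lower had the 3 lowest sums. In WER65, 5 of the 19 were at 0, the Rubisco small subunits RBCS1B, RBCS2B and RBCS3B, the antenna gene LHCB2.1 and the Calvin cycle kinase PRK, and no other group had any at 0. The authors' deposited tables list 1 of the 19 as lower in SHR23, 4 in WER13 and 7 in WER65, and none in PPL, PEP45, pye-1 or wild type without iron. Of all kept genes, 10.6% were listed as lower in SHR23, 14.1% in WER13 and 11.5% in WER65. That share was 9.64% in PEP45, 10.2% in pye-1, 11.7% in wild type without iron and 0.0101% in PPL. Over the 8 groups the median of the 19 had a Pearson r of 0.84 with TAPX, 0.60 with FSD2, 0.56 with FSD3, 0.02 with CAT2 and -0.36 with SAPX on log2(RPKM + 0.5), values from the same libraries that carry no test. The part of green tissue in the falls of TAPX and FSD2 was not tested.

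**Figure D4:**
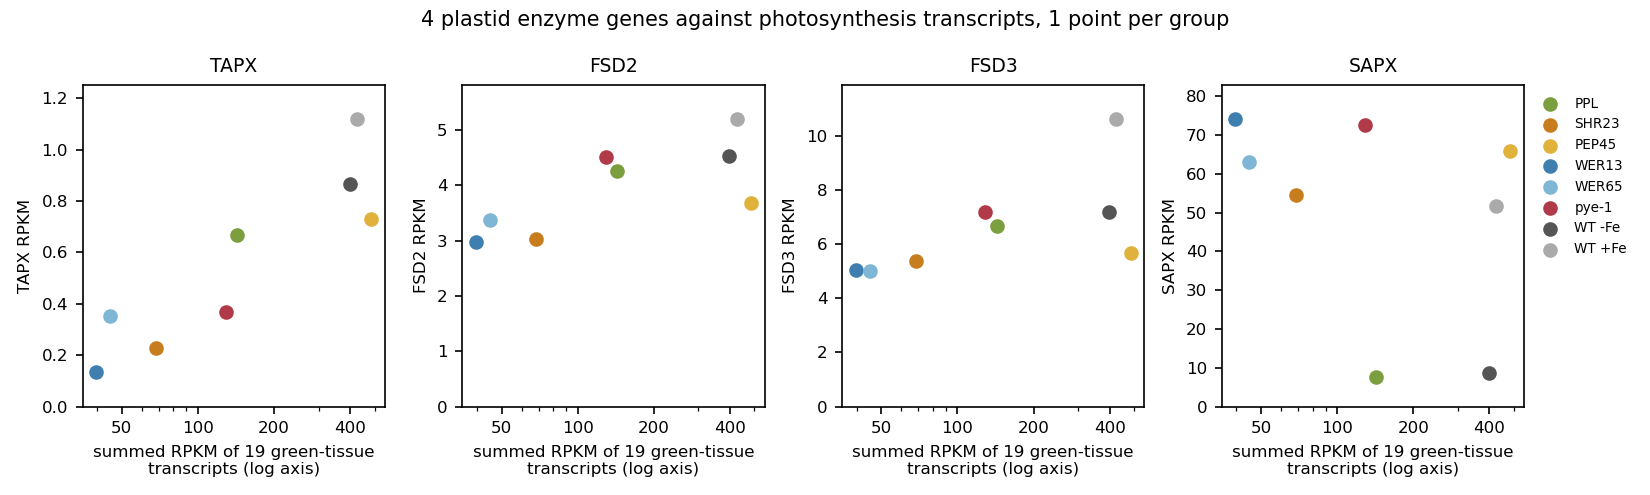
Each point is a group, with the summed RPKM of 19 photosynthesis transcripts on a log axis against the RPKM of TAPX, FSD2, FSD3 and SAPX on linear axes. WER13, WER65 and SHR23 sit at the left with low TAPX, whereas SAPX is below 9 RPKM in PPL and iron-deficient wild type alone, at sums of 143 and 398.

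FSD2 and FSD3 are known to accompany the plastid RNA polymerase complex, and 10 genes of other proteins of that complex were counted beside them. Of the 10, 6 fell in wild type without iron in the authors' deposited table, where 11.7% of all kept genes were listed as lower. In SHR23 3 fell, beside 10.6% of kept genes, in WER13 4, beside 14.1%, and in WER65 3, beside 11.5%. In PEP45 1 of the 10 fell, beside 9.64% of kept genes, and the list median was 0.08 on the log2 scale. None rose in any comparison, and none was listed in PPL or pye-1. PTAC6 (AT1G21600) had the smallest q-value of the list in each of those 5 comparisons, standing at 13.9 RPKM in PPL, 6.75 in SHR23, 9.49 in PEP45, 6.008 in WER13, 6.315 in WER65, 10.5 in pye-1, 14.6 in iron-deficient and 24.1 in iron-sufficient wild type. Their median log2 difference was -0.68 in wild type without iron and 0.07 in pye-1, beside 0.00 over all kept genes in the mutant.

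MSD1 was steady. MSD1 (AT3G10920, chromosome 3, 3417940 to 3419892), the manganese enzyme of the mitochondrial matrix, stood at 166 RPKM in PPL, 147 in SHR23, 145 in PEP45, 140.0 in WER13, 155 in WER65, 136 in pye-1, 152 in iron-deficient and 147 in iron-sufficient wild type. No authors' table lists it, and the mutant at 92.9% and PPL at 113% of iron-sufficient wild type were its extremes. MTM1 (AT4G27940), a mitochondrial carrier protein linked to the activation of MSD1, rose 2.84-fold in wild type without iron, to 12.3 RPKM against 4.32 with iron (q = 0.00018, the authors' deposited table), and was not listed in the other 6 comparisons.

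Set directly against pye-1, a comparison that none of the 7 authors' tables used here makes, PPL differed at least 2-fold by value in 5 of the 9 kept genes, CAT1, CAT2, CAT3, APX1 and SAPX, all lower in PPL. Of all kept genes 9.88% were that far apart, 4.1% lower and 5.78% higher in PPL. SAPX was 9.36-fold lower in PPL than in pye-1, CAT1 4.21-fold, APX1 2.89-fold, CAT3 2.39-fold and CAT2 2.29-fold. SHR23 had none of the 9 kept genes 2-fold apart from pye-1, beside 6.44% of all kept genes, 3.43% higher and 3.01% lower. PEP45 had none either, beside 3.06%, 2.2% higher and 0.86% lower, and nor had WER65, beside 4.66%, 2.13% higher and 2.53% lower. WER13 had 1, TAPX, at 0.135 RPKM in WER13 against 0.368 in pye-1, beside 5.58%, 1.8% higher and 3.78% lower. These counts carry no test. The median log2 difference of the 9 kept genes was -1.18 in PPL and between -0.26 and -0.20 in the other 4 lines against pye-1. Against iron-deficient wild type it was -0.16 in PPL, 0.91 in SHR23, 0.73 in PEP45, 0.24 in WER13, 0.26 in WER65 and 0.95 in pye-1, and without against with iron -0.53, where the median of all kept genes was within 0.01 of 0 in each. With genes kept at 5 RPKM instead, which drops TAPX and leaves 8 members, it was 0.54 in WER13 and 0.57 in WER65.

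The genes whose pattern was most like each of the 8 members that reached 5 RPKM were sought among 15535 genes by Pearson's r over the 8 group means on log2(RPKM + 0.5). These values describe means from shared libraries and carry no test. For SAPX the closest was the ferritin gene FER1 (AT5G01600), an iron store of plastids, at an r of 0.998, with 2.79 RPKM in PPL, 41.3 in SHR23, 59.9 in PEP45, 57.9 in WER13, 56.5 in WER65, 53.55 in pye-1, 3.34 in iron-deficient and 36.2 in iron-sufficient wild type. FER1, too, was below 4 RPKM in PPL and iron-deficient wild type and above 36 in the other 6 groups. CAT1 was closest to AT3G57280 and to ABCE2 (AT4G19210), named as an RNase L inhibitor protein, APX1 to ACC1 (AT1G36160), the cytosolic acetyl-CoA carboxylase, and to AT1G68650, all with r of 0.99 or more. The closest to CAT2 were IAGLU (AT4G15550), a glucosyltransferase for auxin, and RPE (AT5G61410), ribulose-phosphate epimerase, with r of 0.99 each. FSD2 was closest to AT2G20950 and NADP-ME2 (AT5G11670), a malic enzyme, and FSD3 to TET5 (AT4G23410), a tetraspanin, and AT5G44820, again with r of 0.99. CAT3, at 0.96 with AT4G14190, and MSD1, at 0.94 with AT1G30880, had weaker closest matches. Among the members, CAT1, APX1 and SAPX had r of 0.96 to 0.99 with each other, and FSD2 and FSD3 0.92. MSD1 had r between -0.75 and -0.51 with CAT1, CAT2, CAT3, APX1 and SAPX, and 0.35 with TAPX, also a heme enzyme gene. MSD1 stayed between 136 and 166 RPKM, so its r values rest on small differences of unknown spread.

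Among other antioxidant genes, some rose and some fell. Of 54 related genes in 7 lists, 5 rose and 4 fell in pye-1, 6 and 5 in SHR23, 4 and 4 in PEP45, 4 and 9 in WER13, 6 and 5 in WER65, none in PPL, and 6 rose and 9 fell in wild type without iron, all in the authors' deposited tables. Shares listed in the 5 comparisons of pye-1 and the lines other than PPL can be read beside the 18.1% to 23.1% of all kept genes. Of the 4 other ascorbate peroxidase genes, none rose in any comparison. APX3 (AT4G35000), the peroxisomal membrane form, was never listed and stood at 59.6 RPKM in PPL, 63.2 in SHR23, 66.3 in PEP45, 67.1 in WER13, 67.5 in WER65, 68.0 in pye-1, 60.0 in iron-deficient and 68.1 in iron-sufficient wild type. APX5 (AT4G35970) fell in pye-1 to 3.8 RPKM, against 6.497 in iron-deficient wild type (q = 0.0253, the authors' deposited table). APX4 (AT4G09010), a plastid relative, fell 3.60-fold in SHR23, 5.74-fold in WER13 and 3.53-fold in WER65, with q-values of 0.0437, 0.0134 and 0.0421 in the authors' deposited tables. Its levels were low, at 0.5458, 0.3425 and 0.5568 RPKM in these lines against 1.966 in iron-deficient wild type. Those are the 3 lines in which TAPX fell and the green tissue sums were lowest, and the part of green tissue was not tested. APX6 (AT4G32320) fell 1.52-fold in SHR23 (q = 0.025, the authors' deposited table).

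Recycling of ascorbate and glutathione moved gene by gene. GR1 (AT3G24170), the cytosolic glutathione reductase, rose 2.33-fold in pye-1 to 143 RPKM, against 61.4 in iron-deficient wild type (q = 5.7e-06, the authors' deposited table), and rose in SHR23, PEP45, WER13 and WER65 too. MDAR4 (AT3G27820), the monodehydroascorbate reductase of the peroxisome membrane, rose 2.13-fold in pye-1 to 94.8 RPKM, against 44.6 (q = 2.32e-05, the authors' deposited table). It also rose in the same 4 lines and fell without iron in wild type. MDAR2 (AT5G03630) and DHAR1 (AT1G19570), a monodehydroascorbate and a dehydroascorbate reductase, fell in pye-1 and in those 4 lines. MDAR1 (AT3G52880) rose 2.93-fold without iron in wild type, to 444 RPKM against 152 with iron (q = 1.42e-05, the authors' deposited table), and was not listed in pye-1 at 304 RPKM. Of 9 genes of ascorbate and glutathione synthesis, 4 fell in wild type without iron, beside 11.7% of all kept genes. VTC2 (AT4G26850), the control step of ascorbate synthesis, was among them and fell 3.4-fold. GSH1 (AT4G23100), the first enzyme of glutathione synthesis, rose to 236.9 RPKM in SHR23, 150.9 in PEP45, 151.2 in WER13, 142.4 in WER65 and 175.1 in pye-1, against 67.31 in iron-deficient wild type. It fell 1.79-fold in wild type without iron (q = 0.000448, the authors' deposited table).

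Thiol peroxidases, which use no heme, were rarely listed. None of the 8 glutathione peroxidase-like genes appears in any of the 7 authors' tables, and of 8 peroxiredoxin genes PRXIID (AT1G60740) rose without iron in wild type and PRXQ (AT3G26060) fell in WER13, to 0.3 RPKM against 1.61. Outside PPL, those tables list 18.1% to 23.1% of all kept genes. Markers of oxidative stress rose in 7 of 7 cases in wild type without iron, 3 of 7 in pye-1, SHR23, WER13 and WER65, 2 of 7 in PEP45 and none in PPL in the authors' deposited tables. Of all kept genes, 10.3% were listed as higher in wild type without iron, and 7.56% to 8.99% in pye-1 and the lines other than PPL. UPOX (AT2G21640), a mitochondrial protein gene induced by oxidants, rose 56.1-fold without iron to 140.4 RPKM (q = 2.27e-06, the authors' deposited table), and AOX1A (AT3G22370), the alternative oxidase, rose 2.29-fold in pye-1 to 198 RPKM (q = 7.74e-06, the authors' deposited table). In wild type without iron, 2 rose and 1 fell of 7 genes for peroxisomal hydrogen peroxide sources and catalase partners. Of all kept genes, 10.3% were listed as higher there and 11.7% as lower. GOX3 (AT4G18360), a glycolate oxidase family gene, rose 1.67-fold there and also rose in SHR23 and WER65. GOX2 (AT3G14415), of the same family, stood at 28.8 RPKM without and 51.05 with iron, and fell 1.99-fold in WER13 and 1.79-fold in WER65. NCA1 (AT3G54360), a chaperone that catalases need, was not listed anywhere, at 42.8 to 54.6 RPKM.

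**Figure D5:**
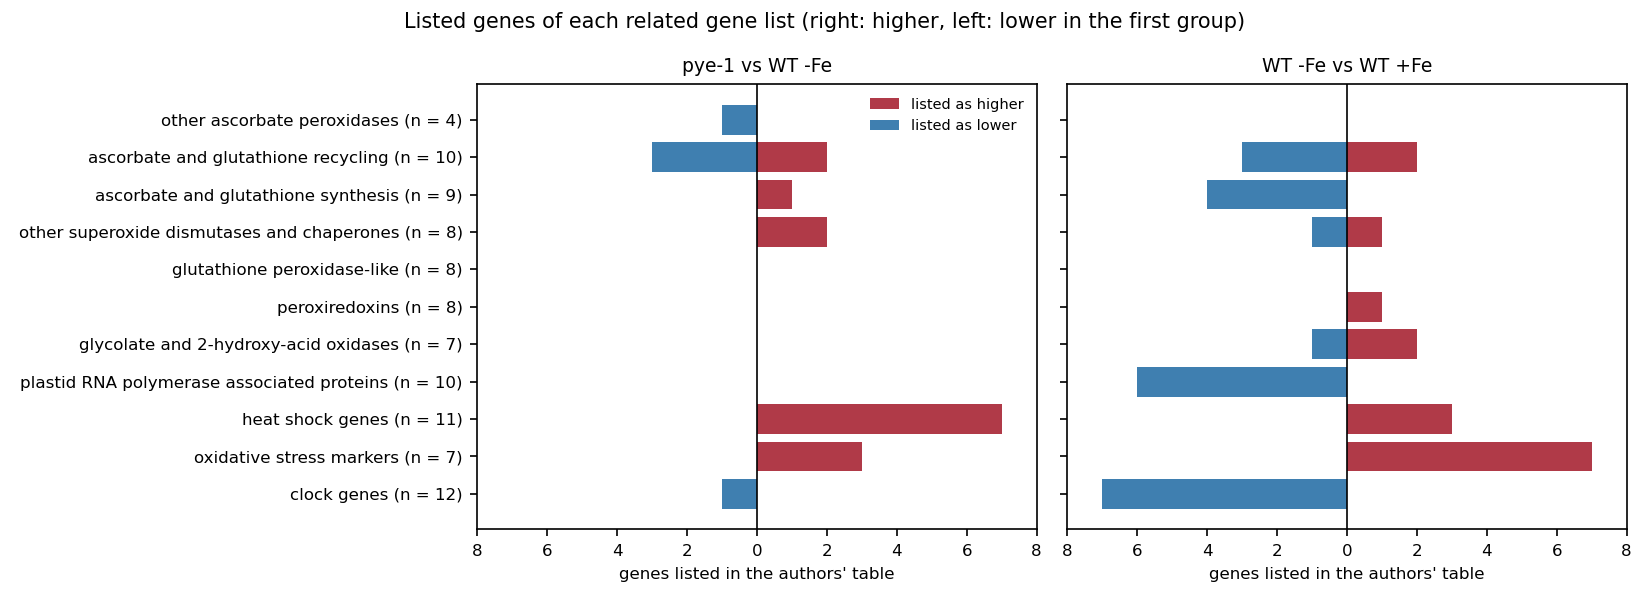
Bars to the right count genes listed as higher and bars to the left genes listed as lower in the authors' tables, for 11 related gene lists whose size is given beside each name. In pye-1 the longest bars are 7 heat shock genes higher and 3 recycling genes lower, and in wild type without iron 7 oxidative stress markers higher and 7 clock genes lower. Of all kept genes, 8.89% were listed as higher and 10.2% as lower in pye-1, and 10.3% and 11.7% in wild type without iron.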

How the data were processed

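Poly(A) RNA libraries with a directional kit were made from roots, per the labels' protocols. The authors deposited RPKM, as the table's name calls it, for 33602 genes with 1 mean for each group; the TAIR10 build, FastQC, TopHat2 and edgeR are named, without versions or roles, in the submitters' processing notes. The counting program, strand setting, gene lengths and the test behind the q-values were not stated in the labels or headers. Without values per library, no test or standard deviation was computed.

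Calls were taken from q-values (all under 0.05) in 7 tables deposited by the authors, 1 of which, headed PYE, was assigned to PPL from its values, a reading that rests on its 3 genes; a sheet of words that heads a column pye-1/PYE holds no comparison. Genes were kept at 1 RPKM or more in at least 1 group, which left 19767. Differences are on log2(RPKM + 0.5), which understates changes of low genes, and folds are plain ratios. Library sizes came from steps of single reads among 10514 single-exon genes, with lengths from TAIR10.1; reads per gene are approximate, and limits from them cover counting error only. Of 33602 identifiers 32835 matched TAIR10.1 for symbols, coordinates and sequence; the nuclear coordinates printed are from that assembly. The steps were tested on simulated data. Members and lists were chosen with earlier results of these data known. Named list genes were up to 2 per list and comparison with the smallest q-value; APX3, MDAR2, DHAR1 and NCA1 were named after their values were seen. Python 3.11.15, pandas 2.3.3 and numpy 2.4.6 were used. No value column was left unassigned.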

Additional observations from a re-analysis of the deposited data

How the results depend on the processing

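No paired analysis was possible because the deposited columns are means of a group and carry no replicate numbers; for the same reason no library could be left out. Of 91 alternatives for counts and medians, 80 stayed within 1.5 times or 0.2 on the log2 scale of the value reported, and no median changed sign. Asking for a 2-fold difference as well left 3 listed genes in PEP45, CAT1, APX1 and SAPX. Keeping genes at 5 RPKM or more, which drops TAPX, moved the median to -0.75 in wild type without iron, 0.54 in WER13 and 0.57 in WER65. With no filter, which adds APX2, it was 0.69 in SHR23 against iron-deficient wild type and -0.92 in PPL against pye-1. A 1.5-fold limit against pye-1 gave 1 gene in SHR23, PEP45 and WER65 and 3 in WER13 (CAT3, TAPX and FSD2), and adding 0.5 RPKM before the ratio gave 0 in WER13. Centring groups on their medians moved no difference by more than 0.03. A q limit of 0.01 removed FSD2 in WER13 and TAPX in WER65. Of 360 alternatives for single genes, 27 moved by 0.2 or more, all of them for APX2 or TAPX under other pseudocounts, the genes with the fewest reads. Reversal of sign was counted only where the authors list the gene, and none of those reversed. Among differences not listed, FSD3 in pye-1 against iron-deficient wild type went from -0.0027 to 0.0001 on centring. Without values per library, no error stands behind any level.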
